A study of Ovis aries with 7 samples.

Results

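The SST/NPY interneurons of the sheep striatum were taken as the nuclei whose somatostatin (SST), neuropeptide Y (NPY), neuronal nitric oxide synthase (NOS1), chondrolectin (CHODL) and cortistatin (CORT) transcripts met a fixed rule, and 116 of 35272 barcodes met it. A barcode is the tag of 1 droplet, which ideally holds 1 nucleus. A barcode was selected if it held at least 4000 unique molecular identifiers (UMIs, the count of distinct transcripts captured) and at most 7500 detected genes. At least 3 of the 5 markers had to be detected with a sum of at least 10 UMIs, and the UMIs of SST, NPY and CHODL together had to exceed those of KIT, CRABP1, PTHLH and HS3ST2, which mark another interneuron class. The levels of these 9 genes are therefore a description of the selection and were not tested.

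The nuclei came from frozen striatum of 12 sheep aged 5 years. Of these, 6 carried the OVT73 transgene, a full-length human huntingtin (HTT) cDNA with an expanded glutamine tract under human HTT promoter sequence, and 6 were wild-type controls without it. Their nuclei filled 7 droplet libraries (3 for OVT73, 4 for control), and the library was the replicate because the nuclei of pooled sheep, which the study assigned to sheep by genotype, were not separated here. Control libraries 1 and 2 held 1 sheep each and the other 5 libraries pooled 2, so that differences between sheep of 1 pool were averaged. The molecule is labelled total RNA for OVT73 library 1 and control library 1 and nuclear RNA for the other 5.

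Striatal SST/NPY cells are sparse, aspiny GABAergic interneurons that also release peptides and nitric oxide, and they carry low-threshold spikes. They arise in the medial ganglionic eminence, as parvalbumin interneurons do, under the transcription factors NKX2-1, LHX6, SOX6 and SATB1. Nitric oxide made by NOS1 activates soluble guanylyl cyclase in neighbouring neurons, which raises cyclic GMP there, while dense core vesicles store and release somatostatin and NPY. In Huntington's disease these interneurons are known as a class that is relatively spared while the projection neurons of the striatum are lost.

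OVT73 libraries 1, 2 and 3 gave 22, 22 and 18 SST/NPY nuclei, and control libraries 1 to 4 gave 10, 13, 13 and 18. The nuclei were deep, with a median of 15838.5 UMIs (4616 to 57247) and 3996.5 detected genes (1696 to 6768). Mitochondrial transcripts made up at most 4.17% of the UMIs of any of them. Summed over the nuclei, OVT73 libraries 1 to 3 held 465243, 319684 and 348329 UMIs, and control libraries 1 to 4 held 201259, 217739, 223856 and 379505. Across the libraries 159 barcode sequences occurred more than once, 2 of the 116 nuclei carried such a sequence, and 0 sequences marked an SST/NPY nucleus in both libraries.

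Each nucleus held between 11 and 947 UMIs of the 5 markers, with a median of 169.5. SST ranged from 0 to 483 UMIs per nucleus (median 74) and NPY, a peptide often stored with it, from 1 to 382 (median 51.5). NOS1 ranged from 0 to 194 (median 10), CHODL, a membrane lectin, from 0 to 36 (median 6), and CORT, a peptide related to somatostatin, from 0 to 44 (median 5). All 5 markers were detected in 85 nuclei, 4 in 18 and 3 in 13, and the most frequent incomplete set lacked CORT alone (12 nuclei). Every library thus spanned a wide range, and the medians by library overlapped between the genotypes in the plot of marker UMIs per nucleus.

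**Figure D1:**
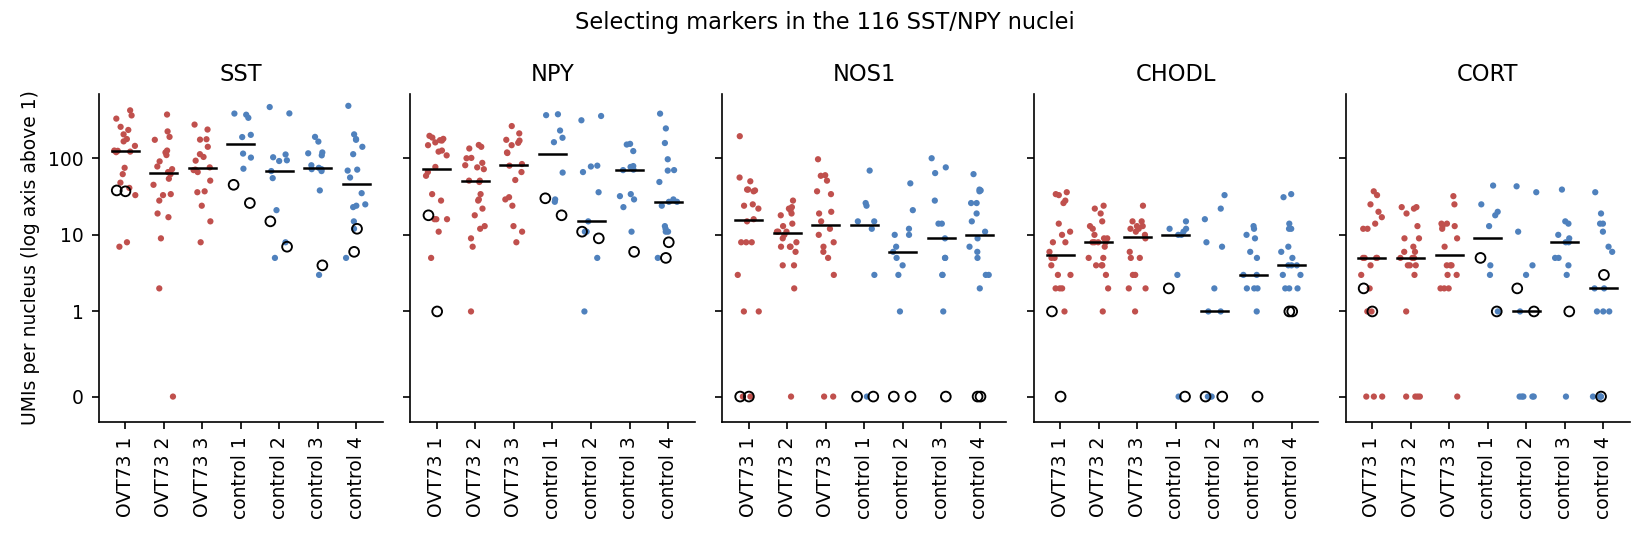
UMIs of the 5 selecting markers in each of the 116 SST/NPY nuclei (points, red for OVT73 and blue for control libraries) by library, on an axis that is logarithmic above 1, with bars at the library medians. The 9 nuclei with under 20 SOX6 and NELL1 UMIs are open black circles, and all 9 stand at 0 for NOS1.

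Levels below are UMIs summed over the nuclei of a class in a library and scaled to a total of 1000000 UMIs (CPM), with the mean ± SD over libraries. SST stood at 6749, 6022 and 5079 CPM in OVT73 libraries 1 to 3 and at 9152, 6572, 4967 and 4340 in control libraries 1 to 4. NPY stood at 4118, 3957 and 5050 in the OVT73 and at 7384, 4556, 3846 and 3273 in the control libraries. NOS1 was 1255, 798 and 1272 against 815, 579, 1438 and 812. The genotypes overlapped for all 3 genes, and control library 1 had the highest SST and NPY. In control library 1 a single nucleus held 69 of the 164 NOS1 UMIs, and without it the library stood at 528. CORT overlapped too, with 308 to 666 CPM over the 7 libraries. CHODL was 462 to 626 in the OVT73 and 304 to 413 in the control libraries, and it was not tested because the selection reads it. Without the 9 nuclei described below that lack SOX6 and NELL1, CHODL was 462 to 626 and 311 to 489, so that the genotypes overlapped.

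SST, NPY and CORT rose and fell together from nucleus to nucleus, whereas NOS1 followed none of them closely. For these values the UMIs of a gene were scaled to the total of each nucleus. Spearman's rho between SST and NPY over the 116 nuclei was 0.832, with 0.456 to 0.965 within single libraries. It was 0.828 between NPY and CORT and 0.769 between SST and CORT, but 0.226, 0.179, 0.164 and 0.236 between NOS1 and SST, NPY, CHODL and CORT. Within single libraries the rho of NOS1 with SST ran from −0.126 to 0.730. These are descriptions: the nuclei of a library share its depth and its free RNA, and the selection reads all 5 genes.

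The markers were also found at low shares in nuclei that should lack them. After each nucleus was thinned at random to 4000 UMIs, SST was detected in 97.4% of SST/NPY nuclei and in 15.5% of 1878 oligodendrocyte nuclei, which should lack it. The unthinned shares were 99.1% and 19.8% at median depths of 15838.5 and 5398 UMIs. NOS1 was detected in 75.0% and 0.373% after thinning, and in 87.1% and 0.639% before. The thinned oligodendrocyte shares of NPY, CHODL and CORT were 5.75%, 2.50% and 1.01%. The selected nuclei held 39.2% to 65.8% of all SST UMIs of a library and 73.3% to 88.6% of its NOS1 UMIs.

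Of genes that the selection did not read, the transcription factor SOX6 and NELL1, which encodes a secreted protein, were abundant in 107 of the 116 nuclei and nearly absent from the other 9. The 107 nuclei held 37 to 946 SOX6 and NELL1 UMIs together (median 220), and each had at least 1 UMI of both. The 9 held 0 to 5. All 9 also had 0 NOS1 UMIs, as did 6 of the 107, and their marker sums were 11 to 82 (median 28) against 17 to 947 (median 179). OVT73 library 1, control library 1, control library 2 and control library 4 held 2 each and control library 3 held 1.

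Some markers of other cell types, though not all, stood higher in these 9 nuclei. PDE10A, a phosphodiesterase of medium spiny neurons (MSNs, the projection neurons of the striatum), reached at least 20 UMIs in 5 of the 9, up to 304 in a control library 4 nucleus of 57247 UMIs, and at least 20 in 23 of the 107, up to 63. At least 10 UMIs of the oligodendrocyte markers were present in 5 of the 9 and in 7 of the 107, and the 9 held 174 of the 379 such UMIs. The 3 of the 116 nuclei with doublet scores among the top 4% of their library were also all among the 9. The near absence of SOX6, NELL1 and NOS1 thus goes against the label for these 9 nuclei, but the other signs do not hold for each. One of them, in OVT73 library 1, held 19 SATB1, 2 LHX6, 4 PDE10A and 0 oligodendrocyte marker UMIs. The cut is a raw count that ignores depth, and the 107 are not uniform either. Among them a control library 2 nucleus held 1 SOX6, 0 ALK and 26 oligodendrocyte marker UMIs. Without them NOS1 averaged 1076 ± 304 CPM in place of 995 ± 321 (SD, n = 7), and PDE10A 696 ± 165 in place of 839 ± 420. RARB, also an MSN marker, ran the other way from PDE10A (852 ± 174 without them, 815 ± 190 with them). So did PCDH15, a marker of oligodendrocyte precursors (1213 ± 205 and 1114 ± 175).

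**Figure D2:**
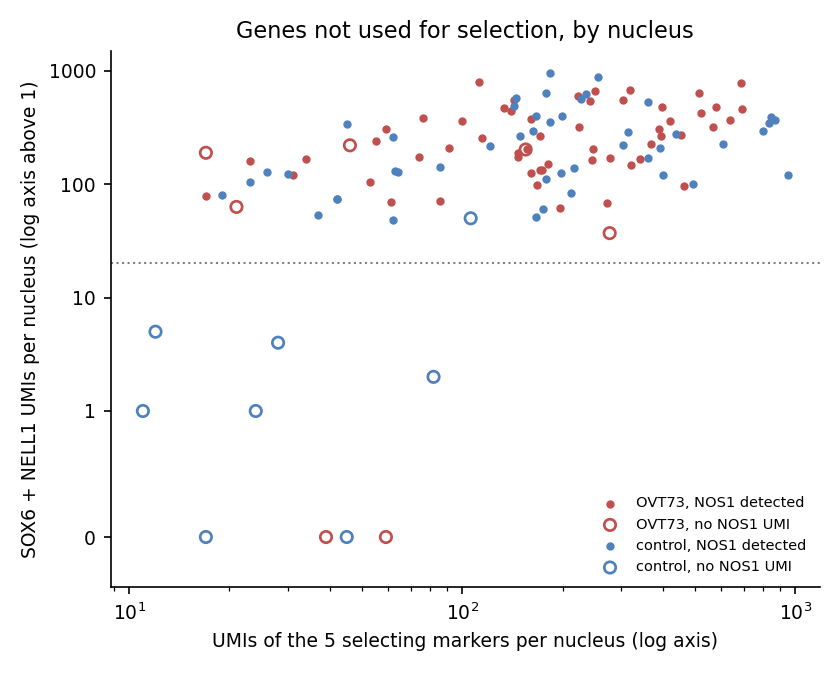
UMIs of SOX6 and NELL1 together (y, logarithmic above 1) against UMIs of the 5 selecting markers (x, logarithmic) in each of the 116 nuclei, red for OVT73 and blue for control, open where no NOS1 UMI was found. The dotted line at 20 UMIs separates 9 nuclei, all open, from 107 nuclei that hold 37 to 946.

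Markers of other classes were otherwise low, apart from 1 abundant gene in several lists. The 6 PV/Th markers summed to 43 UMIs over all 116 nuclei, with TH at 0 and PVALB, the parvalbumin gene, at 1 UMI, and the 3 cholinergic markers summed to 6. TH and PVALB were also too low for a test against PV/Th nuclei, so their low counts here do not tell the classes apart. The 4 markers of glutamatergic neurons summed to 1 UMI and the 5 microglial markers to 4. The 5 astrocyte markers summed to 64 UMIs, and the neuroblast markers DCX and ADARB2 gave 387 and 37. The 9 MSN markers found in the files gave 1725 to 1805 CPM in the OVT73 libraries and 1590, 2012, 2010 and 2956 in control libraries 1 to 4, mostly from PDE10A and from the retinoic acid receptor gene RARB. Without the 9 nuclei control libraries 1 and 4 stood at 1364 and 2011 for this list and the other 5 libraries at 1725 to 2033. Of 4 precursor markers PCDH15, a protocadherin, gave 2414 of 2446 UMIs and CSPG4 was at 0, and of 3 endothelial markers FLT1, a VEGF receptor, gave nearly all of 419 UMIs and CLDN5 was at 0. The 5 oligodendrocyte markers gave 239, 56.3 and 86.1 CPM in OVT73 libraries 1 to 3 and 214, 321, 380 and 58.0 in control libraries 1 to 4. Without the 9 nuclei they gave 116, 56.3 and 86.1 in the OVT73 and 35.1, 157, 242 and 57.4 in the control libraries, so that much of the signal of OVT73 library 1 and control libraries 1 and 2 lay in those nuclei.

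The other markers of these lists were low, with VCAN at 25 UMIs, PDGFRA at 7 and MECOM at 9. FLT1 averaged 201 ± 104 CPM (SD, n = 7) and was found in 67 of the 107 nuclei with SOX6 and NELL1 but in 0 of the other 9. PCDH15 averaged 1114 ± 175.

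To see which genes set the class apart, its summed nuclei were compared within libraries with 3 other classes chosen by markers. These were the PV/Th class (207 nuclei with KIT, CRABP1, PTHLH and HS3ST2), the cholinergic class (37 nuclei, each with CHAT, which makes acetylcholine, and SLC5A7, a choline transporter, while the third marker, SLC18A3, was at 0 in all of them) and MSNs (5476 nuclei). The genes these selections read were left out. By edgeR's quasi-likelihood test with Benjamini-Hochberg adjustment, 897 of 5201 genes tested were higher than in the PV/Th class and 929 lower (17.2% and 17.9%, together 35.1%). Scaled by library size alone, the split was 670 and 1293 and the median difference of all genes moved from −0.02 to −0.16 on the log2 scale. Against the cholinergic class, in the 4 libraries with at least 5 nuclei of both (OVT73 1 and 2, control 3 and 4), 559 of 4365 genes were higher and 492 lower (12.8% and 11.3%, together 24.1%). Against MSNs, 1861 of 11392 genes were higher and 2319 lower (16.3% and 20.4%, together 36.7%), and scaled by library size alone 2184 were higher and 1986 lower, with the median moving from −0.07 to 0.03. The 3 comparisons share the SST/NPY sums and are not independent.

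Oligodendrocyte markers were among the genes higher than in MSN nuclei, where 3 of 4 tested passed. These were MOBP (log2 difference 1.13 ± 0.30, adjusted p = 0.0063), OPALIN (1.29 ± 0.36, adjusted p = 0.015) and MOG (0.65 ± 0.22, adjusted p = 0.017), all myelin genes. Without the 9 nuclei, 1 of 4 passed, OPALIN (0.63, adjusted p = 0.035), while MOBP and MOG differed by 0.25 and 0.18 (adjusted p = 0.543 and 0.600). Against PV/Th nuclei 0 of 2 tested passed, and 0 were tested against the cholinergic class. Without the 9 nuclei the 1 marker then tested against PV/Th nuclei passed as lower (log2 difference −1.21).

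The transcription factors of the medial ganglionic eminence differed in both directions, led by SOX6. It stood at 5797, 6103 and 5420 CPM in OVT73 libraries 1 to 3 and at 4805, 5617, 4525 and 3576 in control libraries 1 to 4. The highest PV/Th library reached 1308, the highest cholinergic library 18.2 and the highest MSN library 22.1, so that no class overlapped with the SST/NPY nuclei. The log2 difference ± SE was 2.45 ± 0.14 against PV/Th (adjusted p = 1.8e-10), 9.63 ± 0.46 against cholinergic (adjusted p = 1.1e-07) and 8.01 ± 0.17 against MSN nuclei (adjusted p = 3.3e-30).

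SATB1, a chromatin organiser that acts in somatostatin interneurons, averaged 230 ± 75.6 CPM (n = 7) and was higher by 3.25 ± 0.20 than in PV/Th nuclei, where it averaged 27.0 ± 6.61. Its lowest library, control 3, stood at 71.5, still above the highest PV/Th library at 38.9. LHX6, which directs interneurons of this origin, averaged 214 ± 58.8 and was higher by 1.42 ± 0.15 than in PV/Th and by 8.58 ± 0.34 than in MSN nuclei. Other factors ran the other way against the PV/Th class. ETV1 averaged 9.40 ± 7.54 against 323 ± 55.0 (log2 difference −4.99 ± 0.27), NKX2-1, the founding factor of the lineage, 3.74 ± 2.94 against 61.9 ± 23.1 (−3.85 ± 0.37), and ZEB2 was lower by 2.72 on the log2 scale. MAF was lower than in PV/Th (−1.36 ± 0.15) and higher than in cholinergic nuclei (3.62 ± 0.49), and LHX8, a factor of cholinergic neurons, averaged 6.36 ± 5.56 against 374 ± 79.1 there.

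In this and the other lists the tested genes differ by comparison, since a gene high in either class alone could pass the filter on low counts. NKX2-1 was tested only against PV/Th nuclei and LHX8 only against the cholinergic class. Counts and medians of a list are therefore not those of the same genes. As a list, 4 of the 10 tested interneuron transcription factors were higher and 5 lower than in PV/Th nuclei, with a median log2 difference of −0.89 beside −0.02 over all genes. Against the cholinergic class 5 of 7 were higher and 2 lower (median 2.12 beside 0.00), and against MSNs 7 of 12 higher and 1 lower (median 2.52 beside −0.07). SP9 against PV/Th lost its call without OVT73 library 1 (0.56, adjusted p = 0.107), and ZEB2 against the cholinergic class without the 9 nuclei (1.11, adjusted p = 0.348).

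Genes for storing and processing peptides were mostly higher in SST/NPY nuclei. SCG2, a secretogranin of dense core vesicles, stood at 4030, 2725 and 3500 CPM in the OVT73 libraries and at 4144, 3040, 2595 and 2743 in the control libraries, while no PV/Th library exceeded 436, no cholinergic library 55.8 and no MSN library 53.0. The log2 differences were 3.52 ± 0.16, 6.10 ± 0.33 and 6.01 ± 0.14 against PV/Th, cholinergic and MSN nuclei, and the classes did not overlap.

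PCSK1, a prohormone convertase, averaged 259 ± 101 (n = 7, 128 to 411) against 10.9 ± 4.40 in PV/Th and 1.73 ± 1.17 in MSN nuclei, differences of 4.77 ± 0.19 and 7.32 ± 0.42, and the cholinergic nuclei held 4 UMIs of it in all. PAM, which amidates NPY among other peptides, averaged 3050 ± 769 against 1093 ± 187 in PV/Th and 751 ± 56.5 in MSN nuclei. Chromogranin A (CHGA) averaged 373 ± 164 against 156 ± 39.1 and 52.1 ± 9.20. The second convertase gene, PCSK2, was higher than in PV/Th nuclei (2.84 ± 0.48, adjusted p = 0.0032) and did not pass against the cholinergic class or MSNs (0.64 ± 0.30 and 0.24 ± 0.16). CPE, which trims peptide ends, differed by 0.59 ± 0.12 from PV/Th and by 0.01 ± 0.11 from MSN nuclei.

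Of this list 7 of 10 tested genes were higher and 1 lower against PV/Th (median 1.46), 6 of 10 higher and 0 lower against cholinergic (median 2.97), and 7 of 11 higher and 1 lower against MSN nuclei (median 1.72). The lower gene was SCG5 in both, by small differences (−0.32 ± 0.12 and −0.40 ± 0.13) whose calls were lost in several repeats, among them the repeat without OVT73 library 3 (adjusted p = 0.158 and 0.091).

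**Figure D3:**
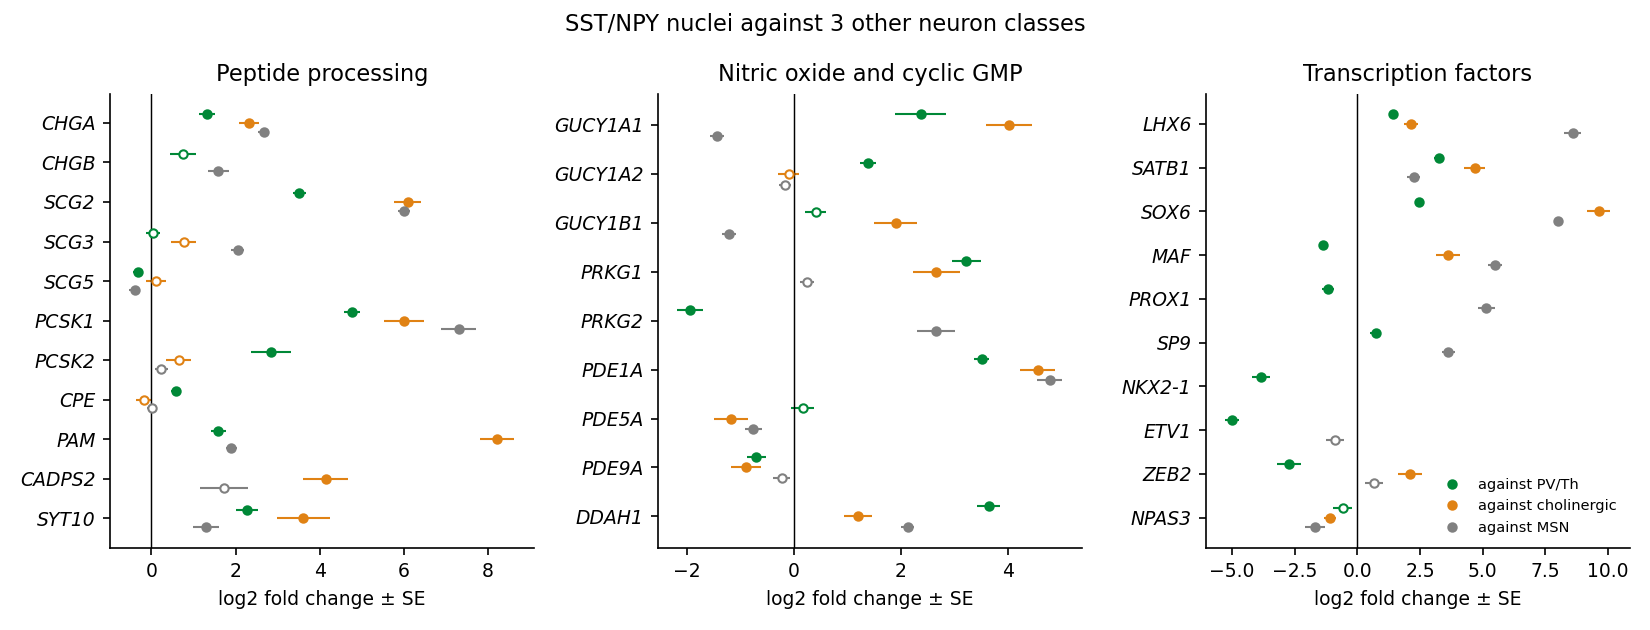
Log2 difference ± SE (x) of SST/NPY nuclei from PV/Th (green), cholinergic (orange) and MSN nuclei (grey) for the tested genes of 3 lists (peptide processing, nitric oxide and cyclic GMP, transcription factors), filled where the adjusted p is under 0.05. SCG2 and PCSK1 lie right of 0 in all 3 comparisons, ETV1 and NKX2-1 far left against PV/Th, and GUCY1A1 on opposite sides against PV/Th and MSN nuclei.

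The nitric oxide and cyclic GMP genes did not move as a block. PDE1A, a phosphodiesterase switched on by calcium and calmodulin, stood at 6541, 6725 and 5991 CPM in the OVT73 and at 5411, 6664, 4851 and 4920 in the control libraries, and its highest library in the 3 other classes reached 688. The differences were 3.50 ± 0.15 from PV/Th, 4.55 ± 0.33 from cholinergic and 4.78 ± 0.24 from MSN nuclei. DDAH1, which breaks down a natural inhibitor of nitric oxide synthase, averaged 300 ± 39.3 and was higher by 3.64 ± 0.21, 1.21 ± 0.26 and 2.12 ± 0.13.

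The subunits of soluble guanylyl cyclase, the receptor of nitric oxide, differed by class. GUCY1A1 was higher than in PV/Th nuclei (2.37 ± 0.48) and lower than in MSNs (−1.44 ± 0.13), and GUCY1B1 was lower than in MSNs as well (−1.21 ± 0.13). PRKG1, a kinase activated by cyclic GMP, was higher by 3.22 ± 0.27 than in PV/Th and differed by 0.24 ± 0.14 from MSN nuclei, which did not pass. Of the list 5 of 9 tested genes were higher and 2 lower against PV/Th (median 1.38), 5 of 8 and 2 against cholinergic (median 1.55), and 3 of 11 and 3 against MSN nuclei (median −0.17). The list holds NOS1, which was not counted. PDE5A and PDE9A, the lower genes against the cholinergic class, each lost the call when OVT73 library 2, control library 3 or control library 4 was left out (adjusted p = 0.065 to 0.089 for PDE5A and 0.084 to 0.212 for PDE9A).

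GAD2 was lower than in the other GABAergic classes. This gene, which encodes a GABA-synthesising enzyme, stood at 34.4, 75.1 and 68.9 CPM in the OVT73 and at 49.7, 32.1, 49.1 and 81.7 in the control libraries, and no PV/Th library was below 237 and no MSN library below 183. Control library 4, the highest, stood at 33.7 without its 2 nuclei that lack SOX6 and NELL1. The log2 difference was −2.59 ± 0.15 from PV/Th (adjusted p = 1.9e-10) and −2.07 ± 0.15 from MSN nuclei (adjusted p = 5.6e-14), with no overlap. GAD1, the other GABA-synthesising enzyme, averaged 136 ± 90.4 with control library 3 at 340 and the others at 89.4 to 116. A single nucleus held 51 of the 76 GAD1 UMIs of control library 3, and without it the library stood at 142. It was lower than in PV/Th nuclei (−0.84 ± 0.19) and did not pass against MSNs (0.32 ± 0.20). Of the 4 tested genes of GABA synthesis and transport 0 were higher and 3 lower against PV/Th (median −1.16). Against the cholinergic class 1 of 3 was higher, ABAT, which breaks down GABA, and 0 were lower (median 1.06), and against MSN nuclei 0 of 5 were higher and 2 lower (median 0.32). After thinning, GAD2 was detected in 11.2% of SST/NPY, 72.5% of PV/Th and 4.37% of oligodendrocyte nuclei, and before thinning in 32.8%, 97.1% and 7.56% at median depths of 15838.5, 17253 and 5398 UMIs.

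Beyond these groups, the genes with the smallest p values included several receptors and signalling molecules. NELL1 averaged 8698 ± 1250 CPM and was higher by 4.26 ± 0.20 than in PV/Th and by 6.42 ± 0.17 than in MSN nuclei. ALK, a receptor tyrosine kinase, averaged 5149 ± 686 and was higher by 2.15 ± 0.12, 4.97 ± 0.34 and 4.31 ± 0.14 than in PV/Th, cholinergic and MSN nuclei. PTPRD, a receptor phosphatase at synapses, averaged 5076 ± 768 and was higher by 4.27 ± 0.16, 2.80 ± 0.26 and 3.03 ± 0.12.

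TRPC7, a cation channel, averaged 966 ± 185 against 12.1 ± 6.68 in PV/Th nuclei (6.24 ± 0.22). THSD4, a matrix protein gene, averaged 1529 ± 146 against 80.6 ± 21.3 (4.42 ± 0.15, adjusted p = 6.0e-13), the smallest p of that comparison. TENT5A, which extends poly(A) tails, averaged 208 ± 80.5 with 3 UMIs of it in all PV/Th nuclei. BCL11A, a zinc finger repressor, averaged 712 ± 171 against 38.0 ± 18.5, and the HMG box genes TOX3 and TOX2 were higher by 4.29 ± 0.16 and 5.46 ± 0.25 than in PV/Th nuclei.

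**Figure D4:**
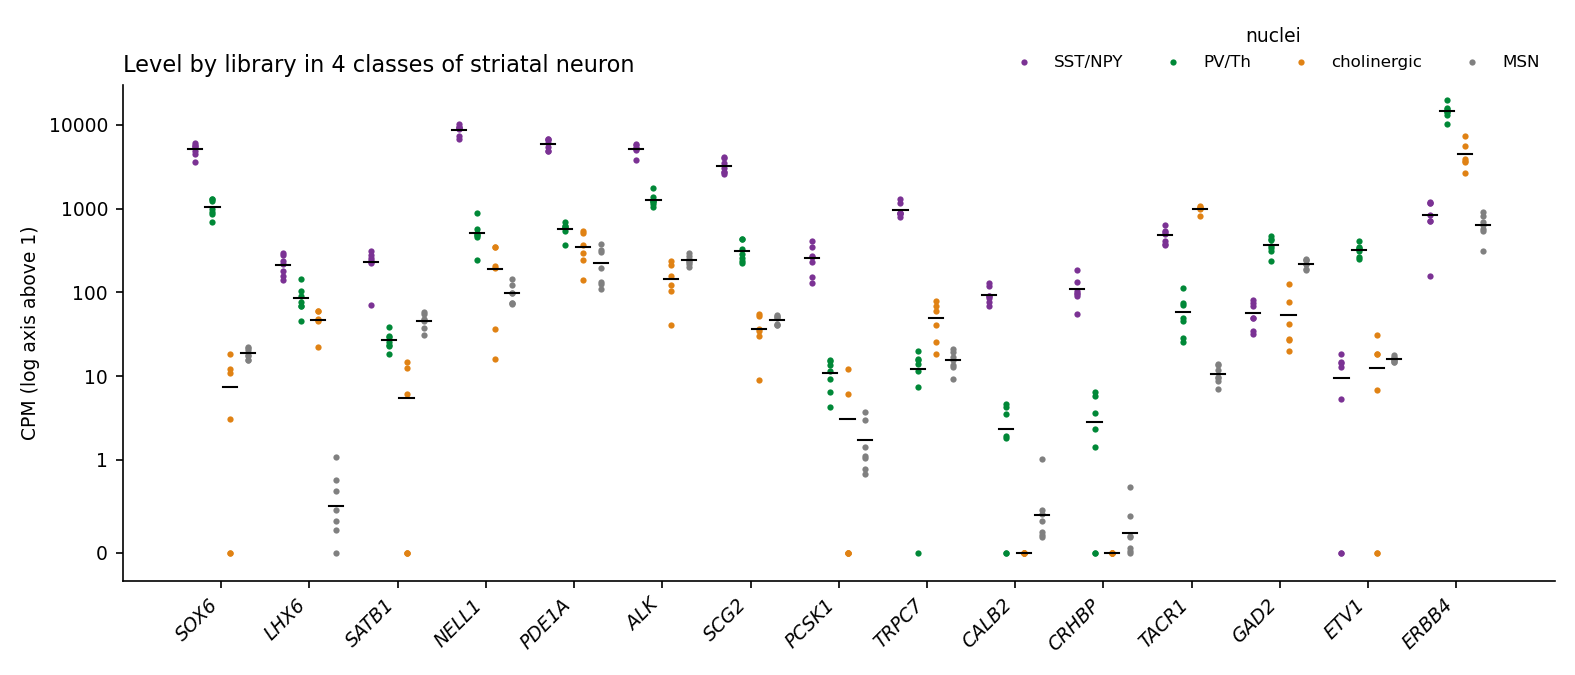
CPM (y, logarithmic above 1) of 15 genes by library (points) and their mean (bars) in SST/NPY (purple, 7 libraries), PV/Th (green, 7), cholinergic (orange, 6) and MSN nuclei (grey, 7). SOX6, SATB1, NELL1, PDE1A, ALK, SCG2, PCSK1 and TRPC7 are highest in every SST/NPY library, CALB2 and CRHBP stand at 0 in every cholinergic library, and GAD2, ETV1 and ERBB4 have their highest mean in PV/Th nuclei.

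Over all 27 library sums of the 4 classes, which include cholinergic sums of only 4 nuclei in OVT73 library 3 and control library 1, the genes whose levels followed SST most closely on the log2(CPM + 10) scale were CALB2, CRHBP, POU2F3, THSD4, BMPER, TENT5A, CRISPLD1 and DSC2, with Pearson's r of 0.984 to 0.961. This is a description, since the sums share libraries and SST chose 1 of the classes. CALB2, the calcium-binding protein calretinin, stood at 90.3, 84.5 and 129 CPM in the OVT73 and at 89.4, 119, 75.9 and 68.5 in the control libraries. CRHBP, which binds corticotropin-releasing hormone, stood at 133, 90.7 and 184 and at 94.4, 55.1, 103 and 97.5, of which OVT73 library 1 and control library 1 stood at 85.5 and 50.0 without their highest nucleus. Both were at 0 UMIs in every cholinergic library and averaged 2.33 ± 1.92 and 2.81 ± 2.61 in PV/Th nuclei, differences of 4.97 ± 0.30 and 5.53 ± 0.32. Of the 107 nuclei with SOX6 and NELL1, 61 held a CALB2 UMI and 58 a CRHBP UMI, against 1 and 1 of the other 9. At such low levels a nucleus with 0 UMIs may still express the gene, so these counts do not limit the share of expressing nuclei. POU2F3 averaged 36.8 ± 14.9 and was at 0 UMIs in all PV/Th and cholinergic nuclei. Of other calcium-binding proteins, CALB1 was lower than in MSNs (−2.63 ± 0.41).

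Among receptors for striatal transmitters, TACR1, the receptor of substance P, was higher than in PV/Th and MSN nuclei. It stood at 522, 629 and 411 CPM in the OVT73 and at 378, 501, 536 and 364 in the control libraries, with 57.9 ± 30.2 in PV/Th, 991 ± 90.0 in cholinergic and 10.6 ± 2.62 in MSN nuclei. The log2 difference was 3.21 ± 0.26 from PV/Th and 5.42 ± 0.15 from MSN nuclei. Against the cholinergic class it was −0.91 ± 0.23 (adjusted p = 0.014), a call that was lost without control library 4 (−0.70, adjusted p = 0.089). The serotonin receptor HTR2C was higher than in PV/Th nuclei by 2.67 ± 0.39 and the opioid receptor OPRM1 by 1.78 ± 0.41, while OPRM1 was lower than in MSNs (−1.07 ± 0.16). Of the list, 4 of 5 tested receptors were higher and 1 lower against PV/Th (median 2.67), 2 of 5 higher and 2 lower against cholinergic (median 0.30), and 4 of 12 higher and 6 lower against MSN nuclei (median −1.38).

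The receptors of the peptides themselves were near the detection limit. Of the 6 somatostatin and NPY receptor genes found in the files, 0 reached the level needed for a test against PV/Th or cholinergic nuclei. Against MSNs NPY1R was lower, at 4.71 ± 4.60 CPM against 16.1 ± 2.58, and NPY5R did not pass. Thinned, the NPY1R call was lost (adjusted p = 0.278).

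Ionotropic glutamate receptor genes were mixed, with 8 of 16 higher and 5 lower against PV/Th, 6 of 14 and 3 against cholinergic, and 6 of 16 and 8 against MSN nuclei. GRIN3A, an NMDA receptor subunit that lowers calcium flow, averaged 405 ± 59.3 and was higher by 2.08 ± 0.18 than in PV/Th and by 6.39 ± 0.29 than in MSN nuclei. GRIN2A averaged 1003 ± 344, close to PV/Th nuclei at 930 ± 170 (0.21 ± 0.16, which did not pass), above MSNs at 210 ± 55.1 (2.15 ± 0.12), and the cholinergic nuclei held 4 UMIs of it. The AMPA receptor subunit GRIA1 was lower than in both PV/Th and MSN nuclei (−1.64 ± 0.19 and −1.76 ± 0.16).

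Of the GABAA receptor subunits 4 of 10 were higher and 3 lower against PV/Th, 2 of 8 higher and 1 lower against cholinergic, and 2 of 12 higher and 7 lower against MSN nuclei. GABRB2 averaged 128 ± 54.9 against 916 ± 109 in PV/Th nuclei (−2.76 ± 0.21), while GABRB1 was higher than in all 3 classes (1.25 ± 0.12, 1.01 ± 0.22 and 0.41 ± 0.11).

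Of the voltage-gated channels, KCNC2, a fast potassium channel, averaged 1183 ± 282 and was higher by 4.70 ± 0.15 than in MSNs and by 0.34 ± 0.15 than in PV/Th nuclei, which did not pass. The pacemaker channel gene HCN4 averaged 32.2 ± 14.1 and was higher than in MSNs (5.94 ± 0.35). The A-type potassium channel genes KCND2 and KCND3 were lower than in MSNs (−2.21 ± 0.13 and −2.45 ± 0.15). Of the calcium and pacemaker channels 4 of 8 were higher and 2 lower against PV/Th, 4 of 9 and 2 against cholinergic, and 5 of 13 and 3 against MSN nuclei. Of the potassium channels the counts were 2 of 9 and 4, 3 of 9 and 2, and 4 of 13 and 4. Over all genes tested the shares were 17.2% higher and 17.9% lower against PV/Th, 12.8% and 11.3% against cholinergic, and 16.3% and 20.4% against MSN nuclei, so that the counts of several of these lists, such as the 2 of 9, lie close to that background.

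ERBB4, the neuregulin receptor that marks many cortical and striatal interneurons, was low. It stood at 1202, 707 and 718 CPM in the OVT73 and at 840, 1148, 156 and 1157 in the control libraries. Single nuclei carried much of this, 344 of 559 ERBB4 UMIs in OVT73 library 1 and 357 of 439 in control library 4. With the highest nucleus of each library left out, the OVT73 libraries stood at 488, 478 and 429 and the control libraries at 583, 670, 105 and 240. In contrast, PV/Th nuclei averaged 14636 ± 2913 and cholinergic nuclei 4468 ± 1724. The differences were −4.11 ± 0.35 and −2.78 ± 0.54, and from MSNs 0.24 ± 0.33, which did not pass. Control library 3 was lowest for ERBB4 and SATB1. Of the growth factor and receptor genes 0 were higher and 4 of 5 lower against PV/Th, among them RET (−3.16 ± 0.31) and NRG3 (−1.14 ± 0.12). Against the cholinergic class 0 of 5 were higher and 3 lower, and against MSN nuclei 0 of 7 were higher and 2 lower. The peptide CCK was lower than in PV/Th nuclei (10.3 ± 7.40 against 196 ± 52.2 CPM).

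RARB was higher than in PV/Th (2.83 ± 0.20) and cholinergic nuclei (5.63 ± 0.41). It averaged 815 ± 190 CPM and 852 ± 174 without the 9 nuclei, beside 367 ± 15.4 in MSNs, whose selection reads it. PDE10A, also in the MSN list, was higher than in PV/Th nuclei by 0.47 ± 0.14, and lost that call without the 9 nuclei (0.29, adjusted p = 0.151). Genes lower than in MSNs included NLGN1, a postsynaptic adhesion protein gene, at 1619 ± 617 against 8103 ± 786 (−2.48 ± 0.14). In NLGN1, KCND2 and PDE10A control library 4 was the highest, at 2983, 3204 and 1742, and without the 9 nuclei, 2 of them from that library, NLGN1 averaged 1259 ± 164 and KCND2 1654 ± 437.

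The OVT73 and control libraries did not differ detectably in how many SST/NPY nuclei they held. Per 100 barcodes with at least 4000 UMIs and at most 7500 genes, OVT73 libraries 1 to 3 gave 0.761, 1.16 and 1.45 and control libraries 1 to 4 gave 1.04, 1.35, 1.18 and 1.68. The means were 1.13 ± 0.347% (SD, n = 3) and 1.31 ± 0.277% (n = 4), a difference of −0.188 points (two-sided exact permutation p = 0.457, adjusted over 2 shares 0.486). Without OVT73 library 1 the difference was −0.00573 points. The 95% exact intervals of the libraries overlapped, from 0.478 to 1.15% in OVT73 library 1 to 1.00 to 2.65% in control library 4, and cover counting error only.

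As a share of all nuclei in the 3 interneuron classes, the values were 23.4, 32.8 and 36.7% in OVT73 and 22.7, 61.9, 34.2 and 38.3% in control libraries 1 to 4. The means were 31.0 ± 6.85% (n = 3) and 39.3 ± 16.5% (n = 4), with a difference of −8.29 points (exact permutation p = 0.486, adjusted 0.486). The 61.9% of control library 2 rests on 13 of 21 interneurons, and without that library the difference was −0.754 points. With 3 against 4 libraries the smallest possible p is 0.0286. A share of nuclei cannot tell fewer SST/NPY cells from more of the others. Within the 5 libraries labelled nuclear RNA the differences were −0.0965 and −10.0 points, and those labelled total RNA were 1 of each genotype.

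**Figure D5:**
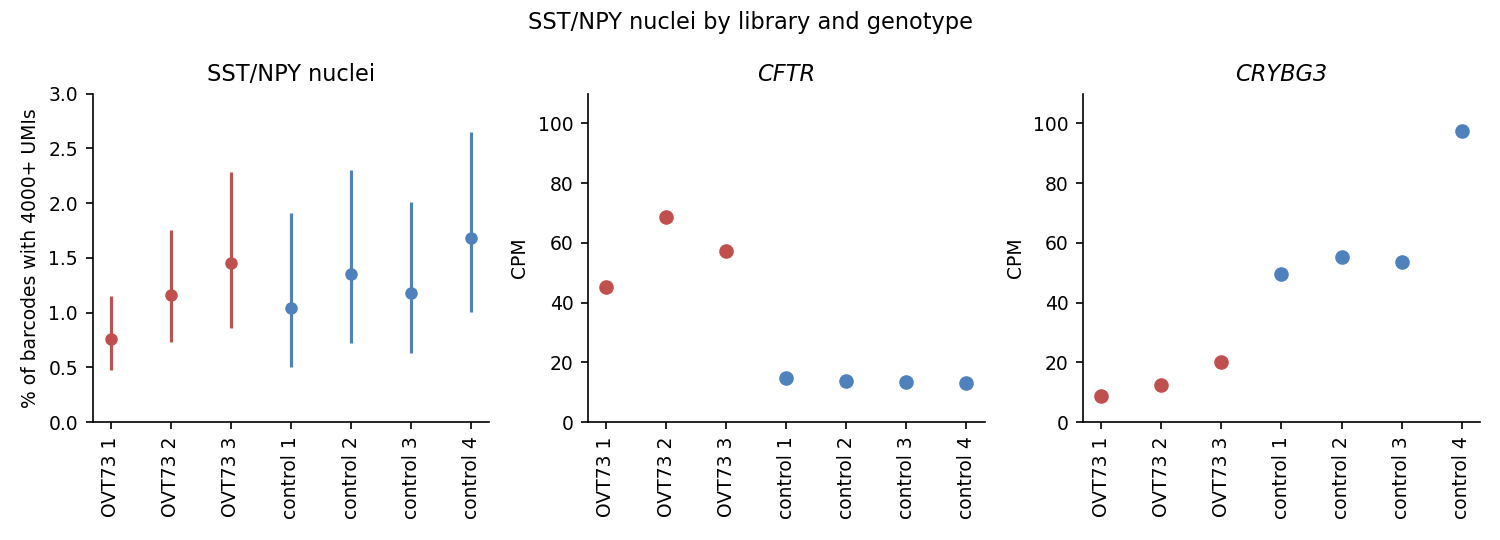
Left, SST/NPY nuclei as a percent of barcodes with at least 4000 UMIs by library with 95% exact binomial intervals, middle and right, CPM of CFTR and CRYBG3 in SST/NPY nuclei by library, red for OVT73 and blue for control. The intervals overlap throughout, CFTR is 45.1 to 68.8 in OVT73 and 13.2 to 14.9 in control libraries, and CRYBG3 is 8.60 to 20.1 and 49.7 to 97.5, neither past the adjusted threshold.

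The huntingtin transcripts of the class were few. The feature added to the reference under the name HTT gave 2, 0 and 1 UMIs in the SST/NPY nuclei of OVT73 libraries 1 to 3 and 0 in each control library, out of 342, 63 and 27 UMIs in all barcodes of the OVT73 libraries and 1, 2, 5 and 6 in those of the controls. The library totals thus follow the labels. Sheep HTT stood at 83.8, 75.1 and 112 CPM in the OVT73 and at 89.4, 106, 75.9 and 108 in the control SST/NPY nuclei, with overlap and a log2 difference of −0.06 ± 0.26.

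To ask whether the transgene was accompanied by changes within the class, the 3 OVT73 and 4 control sums were compared gene by gene. Of 4856 genes tested, 0 passed an adjusted p of 0.05 by edgeR's quasi-likelihood test (0.0%), 233 had an unadjusted p under 0.05, and DESeq2 called 0 with 147 at that unadjusted level. The groups did not overlap for 250 genes (5.15%). With 0 calls over all genes the fixed lists could hold none, and their counts add nothing to that result. Tested were 11 peptide processing genes, 8 nitric oxide and cyclic GMP genes, 15 ionotropic glutamate receptor genes, 8 transcription factors and 3 GABA synthesis and transport genes. Their median log2 differences were −0.02, −0.02, 0.01, 0.37 and 0.05, beside −0.02 over all genes. The receptors for striatal transmitters (5 tested), GABAA subunits (9), calcium and pacemaker channels (8), potassium channels (9) and growth factor genes (4) had medians of 0.20, −0.05, 0.02, −0.08 and −0.02, with 0 called. The list medians farthest from 0 among those with at least 3 genes tested were those of other cell types. The 4 tested oligodendrocyte markers had a median of −0.68, with 0 of 4 above 0, and the 4 tested MSN markers a median of −0.57, with 1 of 4 above 0, RARB, and 0 passed. Without the 9 nuclei, 7 of which came from control libraries, the medians were −0.26 over the 2 oligodendrocyte markers then tested and −0.17 over the 4 MSN markers.

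For each direction the 6 genes with the lowest p are given as values. CFTR, a chloride channel, stood at 45.1, 68.8 and 57.4 CPM in the OVT73 and at 14.9, 13.8, 13.4 and 13.2 in the control libraries, on 77 UMIs in all (log2 difference 2.03 ± 0.39, adjusted p = 0.266). CRYBG3, a crystallin domain protein, stood at 8.60, 12.5 and 20.1 and at 49.7, 55.1, 53.6 and 97.5, on 86 UMIs (−2.25 ± 0.44, adjusted p = 0.266). Neither gene overlapped between the groups, and neither passed. The others on the higher side were FBXW4 (1.08 ± 0.27), the calsyntenin CLSTN2 (0.87 ± 0.22), SULF1 (1.67 ± 0.49), PLCXD3 (0.64 ± 0.22) and the contactin CNTN5 (0.90 ± 0.30). On the lower side they were the sodium and calcium exchanger SLC24A2 (−1.14 ± 0.29), SGPP2 (−1.49 ± 0.41), the cadherin CDH12 (−2.61 ± 0.67), the transcription factor NFIB (−1.10 ± 0.31) and HACD2 (−0.80 ± 0.23), all with an adjusted p of 0.996 or 0.997. Without the filter on low counts 4 genes were higher and 10 lower past the threshold, among them CFTR (adjusted p = 0.023), CRYBG3, CDH12, CLSTN2, FBXW4 and SLC24A2.

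The number of selected nuclei depended on the limits. A further 59 barcodes met every condition but the UMI minimum, with 506 to 3971 UMIs and marker sums of 10 to 758. Another 25 failed only the marker sum, at 3 to 8 UMIs, 8 detected fewer than 3 markers, with sums of 10 to 56, and 1 exceeded the gene limit with 8661 genes and a marker sum of 384. Just inside, the 6 nuclei with the lowest sums had 11 to 19 UMIs.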

How the data were processed

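Nuclei from frozen anterior striatum were sequenced by the authors as 7 Chromium 3′ libraries. The authors deposited raw UMI counts of 26479 features per barcode, made with Cell Ranger 7.0.0 and STAR 2.7.2a (per the submitters' processing notes) on Oar_rambouillet_v1.0, before sheep were told apart, quality control or normalization. Symbols were those paired with the features in the files (17294 features). The libraries held 20887378 to 70473426 UMIs.

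SST/NPY nuclei were selected by the rule in the opening. PV/Th nuclei needed at least 3 of KIT, CRABP1, PTHLH and HS3ST2 with a sum of at least 10 UMIs that exceeded SST, NPY and CHODL. Cholinergic nuclei needed at least 2 of CHAT, SLC5A7 and SLC18A3 with a sum of at least 5, and MSNs at least 3 of 6 markers (PDE10A, RGS9, PPP1R1B, ADCY5, RARB and a gene that is not reported here) with a sum of at least 20. The rule has no doublet filter. An alternative removed the 4% of barcodes with the highest scrublet score in each library (scanpy 1.11.5), 3 of the 116 nuclei.

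UMIs were summed per library and class, and edgeR 4.0.16 in R 4.3.3 tested the sums of at least 5 nuclei (low genes dropped by filterByExpr, TMM scaling, robust quasi-likelihood, two-sided, Benjamini-Hochberg over all genes tested, threshold 0.05), with the library as a block between classes. The study tested nuclei with MAST. Here edgeR's p-values set a difference against the variation between library sums, in the class comparisons against what remained after the library block. DESeq2 1.42.0 was an alternative. Shares were compared by exact permutation over 35 splits (scipy 1.17.1, Python 3.11.15). The scripts were tested on simulated counts.

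Named genes were the fixed lists, the 12 genes per direction with the smallest p among those called and moving the same way in every library of a class comparison (a selection of which is named), the 6 per direction for OVT73, and the 8 most like SST. The members and lists were chosen with earlier results of these data known.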

Additional observations from a re-analysis of the deposited data

Results flagged for a closer look

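Of 19 values examined in the 4 control libraries, 1 had a library far from the other 3, where chance gives about 1 in 20. CRYBG3 stood at 97.5 CPM in the SST/NPY nuclei of control library 4, against 49.7 to 55.1 in the other 3 control libraries. The 19 values did not cover every gene named above, so CRYBG3 is not the only such gene. Control library 3 stood as far apart for SATB1 (71.5 CPM against 227 to 243) and GAD1 (340 against 89.4 to 116).

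Barcodes too shallow for the selection carried the peptide markers at high density. There were 59 barcodes under 4000 UMIs that met every other condition, with a median of 975 UMIs and 605 detected genes. The 5 markers made up a median of 8.01% of their UMIs and up to 31.6%, and over 5% in 31 of them, against a median of 0.956% and a maximum of 5.94% in the 116 SST/NPY nuclei. The rule asks for at least 10 marker UMIs at any depth, so shallower barcodes had to hold a larger share. Part of this contrast was therefore set by the selection. NOS1 gave 0.509% of their marker UMIs against 8.28% in the SST/NPY nuclei, and 36 of the 59 had no NOS1 UMI. Pooled over barcodes, SST stood at 30936 and 5969 CPM and NOS1 at 299 and 1022. OVT73 libraries 1 to 3 held 16, 6 and 5 of these barcodes and control libraries 1 to 4 held 5, 15, 5 and 7. What these barcodes hold was not tested.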

How the results depend on the processing

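The OVT73 comparison gave 0 calls in every alternative except the one without a filter on low counts (15760 genes tested, 4 higher and 10 lower), and 0 to 0 when each library was left out. The share of deep barcodes kept its sign, without passing, except over all barcodes that pass quality control, where it was 0.359% against 0.331% (difference 0.0282, exact permutation p = 0.629). Leaving out each library gave −0.351 to −0.00573 points, and −13.8 to −0.754 points for the share of interneurons. Thinning every nucleus to 4000 UMIs, which leaves fewer genes to test, gave 336 higher and 360 lower of 1661 against PV/Th, 183 and 160 of 830 against cholinergic, and 793 and 1408 of 7647 against MSN nuclei. Without the filter on low counts the counts were 1038 higher and 1360 lower of 18100 against PV/Th, 856 and 642 of 16090 against cholinergic, and 1803 and 2745 of 22113 against MSN nuclei. Leaving out each library gave 788 to 880 higher and 743 to 915 lower against PV/Th, 404 to 503 and 373 to 428 against cholinergic, and 1567 to 1787 and 2081 to 2421 against MSN nuclei. Without the 9 nuclei, an alternative chosen after seeing the data, these counts were 878 and 926, 574 and 558, and 1863 and 2471, and the shares differed by −0.0376 and −5.80 points. The selection gave 98 to 154 nuclei under other limits. Of the named and list genes that were followed, 84 of 96 against PV/Th, 66 of 79 against cholinergic, 90 of 107 against MSN nuclei and 6 of 12 for OVT73 kept direction and side of the threshold in every alternative. None of these followed genes changed direction. Other list genes near 0 could, as the 1 neuroblast marker tested for OVT73 moved from 0.056 to −0.0045 without the 9 nuclei. A minimum of 10 nuclei per class was not run for the cholinergic class, where no library has 10. No paired analysis of OVT73 against control was possible because the library numbers only name samples within a group. With 10 to 22 nuclei per library, 4856 genes had enough counts to be tested between the genotypes.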
